A study of Mus musculus with 4 samples.

Results

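Reads of 7 blood cell miRNA hairpins were followed in small RNA libraries of mouse sperm. Of these, mmu-mir-451a, mmu-mir-144, mmu-mir-486a and mmu-mir-486b are known as miRNAs of the red cell lineage, and mmu-mir-142a, mmu-mir-150 and mmu-mir-223 as miRNAs of white blood cells. They are written miR-451a and so on from here. The hairpins were chosen by name, with earlier results of these data known. Sequences of at least 18 nt were kept when every hairpin in their annotation belonged to this set, and they were summed per hairpin or per joint name. This gave 8 labels and 43 distinct sequences, of 389 miRNA labels and 2783 miRNA sequences in all. The erythroid set held 5 labels, because the identical parts of miR-486a and miR-486b are read under a joint name, and the leukocyte set held 3.

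The Mdd group comprised 2 libraries from C57BL mice given varied stressors daily, among them restraint, isolation, a tilted or damp cage, noise and a disturbed light cycle. The control group comprised 2 libraries from C57BL mice that were left alone apart from feeding and cage cleaning. The protocol names sperm as the source of the RNA, while the tissue label of every sample is testis. The labels do not say that the replicates came from different animals. The p-values therefore reflect no more than the scatter of these libraries, which could be technical.

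Mature red cells keep abundant small RNA although they have no nucleus, and miR-451a is known as their leading miRNA. miR-451a and miR-144 are cut from a common primary transcript. Maturation of miR-451a is unusual: its hairpin is too short for Dicer, so Argonaute 2 cuts it and its 3′ end is then trimmed back. miR-486 is made in red cells and also in muscle. miR-223 is a miRNA of myeloid cells, miR-150 of mature lymphocytes, and miR-142a of blood cells broadly.

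Mature sequences from RefSeq are printed to show which arm each label's reads come from, with the seed, bases 2 to 8, in capitals. Of the 7 hairpins, 4 were matched there with their mature arms, and the 6 mature sequences carried 6 different seeds.
miR-451a: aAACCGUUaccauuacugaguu
miR-144-3p: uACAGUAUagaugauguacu
miR-144-5p: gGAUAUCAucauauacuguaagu
miR-142a-5p: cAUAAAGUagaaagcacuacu
miR-142a-3p: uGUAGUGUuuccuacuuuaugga
miR-223-3p: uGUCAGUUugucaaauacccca
In GRCm38.p6 the miR-144 hairpin lies on the plus strand of chromosome 11 from 78073005 to 78073070. The miR-451a hairpin follows from 78073170 to 78073241, with 99 bases between them. The miR-142a hairpin lies on chromosome 11 from 87756864 to 87756927, and that of miR-223 on chromosome X from 96242817 to 96242926, both on the plus strand.

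Reads of 18 nt or longer numbered 23748630 and 23806805 in Mdd replicates 1 and 2 and 9706895 and 16763277 in control replicates 1 and 2. miRNA labels held 198947 and 94011 of them in Mdd and 71902 and 263748 in controls, or 0.838% and 0.395% against 0.741% and 1.57%. Values in CPM below are reads per 1000000 of these miRNA reads, and values in RPM are reads per 1000000 of all reads of 18 nt or longer. Sequences had usual copy numbers of 44 and 7 in Mdd and 7 and 10 in controls, meaning the copy number at which most genome-matched sequences pile up once rare ones are passed. Reads are therefore not independent molecules, and all intervals and floors cover counting error only. A germ cell list of 8 hairpins, including miR-34b and miR-449a, summed to 353612 and 264192 CPM in Mdd and 318475 and 145010 CPM in controls. In RPM the germ cell list stood at 2962 and 1043 in Mdd and 2359 and 2282 in controls. On the CPM scale control replicate 2 stood apart in the muscle and endothelial miRNAs, but not in the epithelial list. The epithelial list summed to 7354 and 17115 CPM in Mdd and 8247 and 17293 CPM in controls. In RPM it was highest in control replicate 2, at 61.6 and 67.6 in Mdd and 61.1 and 272 in controls. In control replicate 2 the striated muscle list held 65737 CPM, against 989 to 3880 CPM in the other libraries. The endothelial miR-126a stood there at 13323 CPM, against 872 to 4089 CPM. Of the muscle list 4 labels were tested and all had negative fold changes, with 0 past the threshold and 4 at an unadjusted p under 0.05 (edgeR). Over all 236 labels tested, 11 (4.66%) were at an unadjusted p under 0.05 (edgeR). The part of muscle and endothelial RNA in the results on control replicate 2 was not tested.

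Erythroid reads outnumbered leukocyte reads in every library. The erythroid labels summed to 11850 and 4711 reads in Mdd and 3330 and 1508 reads in controls. Leukocyte labels summed to only 71 and 21 reads in Mdd and 47 and 219 reads in controls. There were thus 166.9 and 224.3 erythroid reads per leukocyte read in Mdd and 70.9 and 6.89 in controls. On the log2 scale the ratio averaged 7.60 ± 0.30 in Mdd and 4.47 ± 2.38 in controls (SD, n = 2 each), a difference of 3.13. The groups did not overlap, and the exact two-sided permutation p was 0.333, the smallest that 2 against 2 libraries allow. Without control replicate 2 the difference was 1.45, and without control replicate 1 it was 4.81. The 71 leukocyte reads of Mdd replicate 1 are fewer than 3 times its usual copy number, or 132 reads. In Mdd replicate 2 the leukocyte reads only equal that limit, which is 21 reads there. The ratios of both Mdd libraries thus rest on leukocyte counts at or below this limit.

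As a share of miRNA reads, erythroid labels took 5.96% and 5.01% in Mdd and 4.63% and 0.572% in controls. With 95% Wilson intervals on reads, Mdd replicate 2 lay between 4.87% and 5.15% and control replicate 1 between 4.48% and 4.79%. With reads divided by the usual copies the intervals were 4.65% to 5.39% and 4.24% to 5.06%, which overlap. The means were 5.48% ± 0.668 in Mdd and 2.60% ± 2.87 in controls (SD, n = 2 each). Their difference was 2.88 percentage points, or 0.852 without control replicate 2 and 4.91 without control replicate 1 (exact permutation p of 0.333 with all 4 libraries). Leukocyte labels took 0.0357% and 0.0223% in Mdd and 0.0654% and 0.0830% in controls. Their intervals with reads divided by copies ran from 0.0121% to 0.161% and from 0.00760% to 0.0657% in Mdd, and from 0.0330% to 0.141% and from 0.0551% to 0.126% in controls. In bulk RNA, fewer blood cells and less RNA per blood cell cannot be told apart.

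Relative to all reads of 18 nt or longer the erythroid groups overlapped. Erythroid labels stood at 499 and 198 RPM in Mdd and at 343 and 90.0 RPM in controls, with control replicate 1 above Mdd replicate 2. Leukocyte labels stood at 2.99 and 0.882 RPM in Mdd and at 4.84 and 13.1 RPM in controls, without overlap. The miRNA share of the library was lowest in Mdd replicate 2 and highest in control replicate 2, and its part in these orders was not tested.

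**Figure D1:**
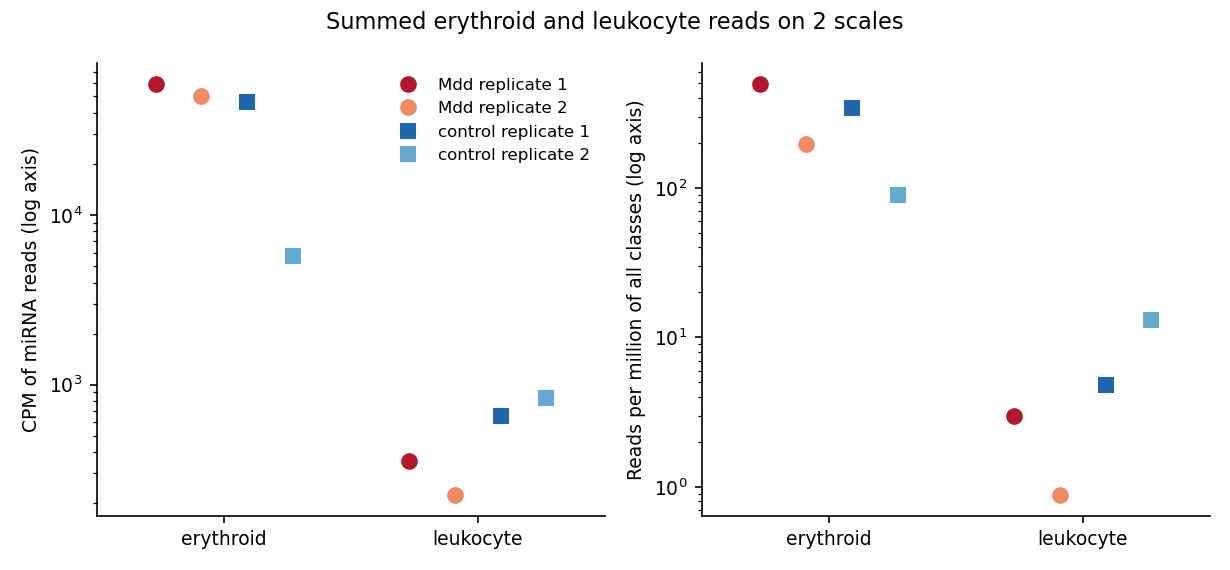
Summed erythroid and leukocyte reads of each library, as CPM of miRNA reads on the left and RPM of all reads of 18 nt or longer on the right, both on log axes. Each point is 1 library, circles are Mdd and squares control. On the left both Mdd libraries are above both controls for erythroid labels, at 59564 and 50111 against 46313 and 5718 CPM, while on the right control replicate 1 lies above Mdd replicate 2.

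miR-451a made up 95.4% to 98.3% of the erythroid reads in each library. It had 11441 and 4492 reads in Mdd and 3273 and 1479 reads in controls. This corresponded to 57508 and 47782 CPM in Mdd and 45520 and 5608 CPM in controls. Control replicate 1 was thus close to both Mdd libraries, and control replicate 2 alone was far below. miR-451a ranked 2 and 4 among the miRNA labels in Mdd, and 3 and 42 in controls. The means were 52645 ± 6877 CPM in Mdd and 25564 ± 28223 CPM in controls (SD, n = 2 each). edgeR's quasi-likelihood test over all labels gave a log2 fold change of 1.19 (SE 0.96, adjusted p = 0.952). Without control replicate 2 it was 0.35 and without control replicate 1 it was 3.13. The adjusted p ran from 0.0843 to 0.9999 over the alternative settings of edgeR. On the RPM scale miR-451a stood at 482 and 189 in Mdd and 337 and 88.2 in controls, which overlap.

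Reads shared by miR-486a and miR-486b followed the same order of libraries with a wider gap. The joint label had 409 and 192 reads in Mdd and 56 and 19 reads in controls, or 2056 and 2042 CPM in Mdd and 779 and 72.0 CPM in controls. Both Mdd libraries were above both controls, also on the RPM scale, at 17.2 and 8.06 in Mdd and 5.77 and 1.13 in controls. The log2 fold change was 2.43 (SE 1.15), the lowest p of the members that were tested, and it did not pass (adjusted p = 0.775 with edgeR, 0.553 with DESeq2). It was 1.53 without control replicate 2 and 4.71 without control replicate 1, and its adjusted p ran from 0.162 to 0.993 over the alternative settings of edgeR. miR-486 is also made in muscle, and the muscle list was highest in control replicate 2, where this label was lowest. The 19 reads there lie below 3 times the usual copies, or 30 reads. A further 92 reads of that library, which add 1 to 3 bases to the label's reads, are counted apart below. Whether muscle supplied any miR-486 reads was not tested. A few reads were annotated to a single copy alone, and their place on its hairpin was not determined. miR-486a alone had 0 and 27 reads in Mdd and 0 and 5 in controls, and miR-486b alone had 1 read, in control replicate 2.

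miR-144 was nearly missing although it is cut from the same primary transcript as miR-451a. It had 0 reads in both Mdd libraries and 1 and 4 reads in controls. The limit set by 0 reads, taken as 3 reads, is 15.1 CPM in Mdd replicate 1 and 31.9 CPM in Mdd replicate 2. The control values were 13.9 and 15.2 CPM, so no difference was detectable at this depth. Per 1000 miR-451a reads there were 0.306 and 2.70 miR-144 reads in controls. The floor of 3 reads allows up to 0.262 and 0.668 in Mdd, and 3 reads times the usual copies allow 11.5 and 4.67. Of the 5 reads, 3 came from the 3p arm and 2 from the 5p arm.

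The leukocyte labels had few reads and no common order of libraries. miR-150 had 60 and 0 reads in Mdd and 19 and 145 reads in controls, or 302 and 0 CPM in Mdd and 264 and 549.8 CPM in controls. Its groups overlapped, with a log2 fold change of -1.36 and an SE of 2.02 (edgeR adjusted p = 0.992). Leaving out Mdd replicate 1 gave -8.88 for miR-150, a value that depends on the prior count because Mdd replicate 2 has 0 reads, and leaving out any other library gave -1.88 to -0.24. miR-223 had 9 and 15 reads in Mdd and 2 and 51 reads in controls, or 45.2 and 160 CPM in Mdd and 27.8 and 193 CPM in controls. These groups overlapped as well, with a log2 fold change of -0.23 (SE 2.18). It was positive when Mdd replicate 1 was left out, at 0.35, and when control replicate 2 was, at 1.93. miR-142a had 2 and 6 reads in Mdd and 26 and 23 reads in controls, or 10.1 and 63.8 CPM in Mdd and 362 and 87.2 CPM in controls. Its Mdd libraries lay below both controls on either scale, but the difference did not pass, with a log2 fold change of -2.53 and an SE of 2.27 (edgeR adjusted p = 0.992). It was -1.41 without control replicate 1 and -4.18 without Mdd replicate 2. The usual copy number is 44 in Mdd replicate 1, so its 9 miR-223 and 2 miR-142a reads lie below that of a single usual sequence.

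**Figure D2:**
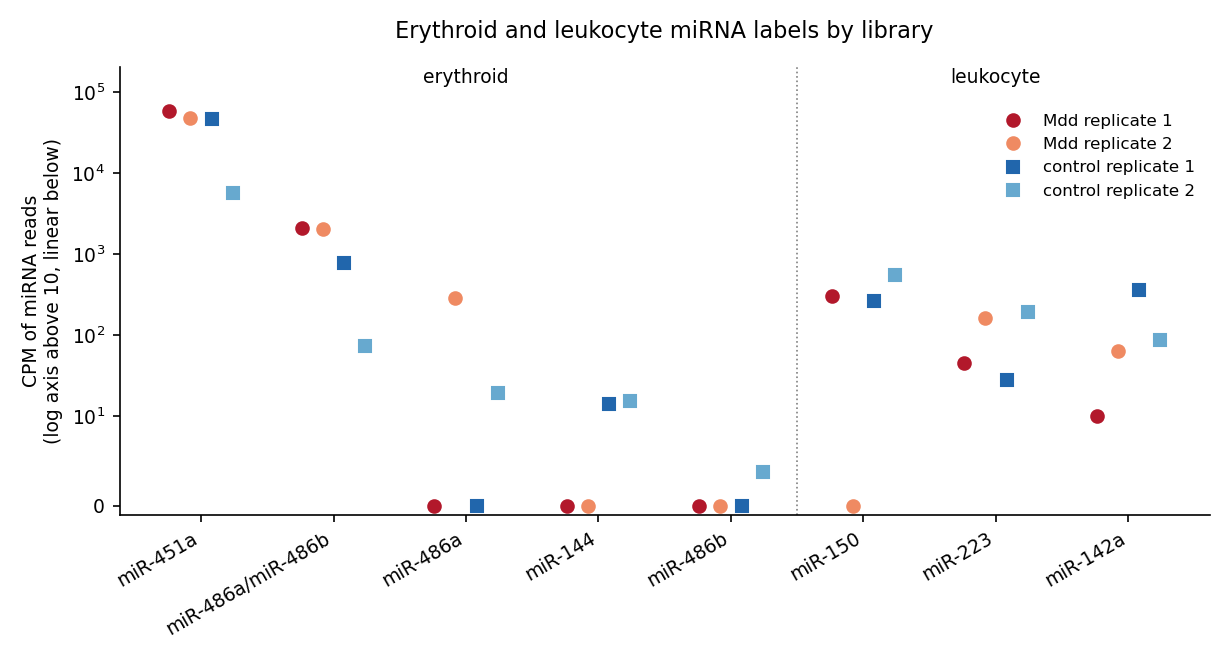
CPM of miRNA reads for each of the 8 labels, logarithmic above 10 and linear below, with 1 point per library, circles for Mdd and squares for control. miR-451a and the joint miR-486a/miR-486b label are lowest in control replicate 2, at 5608 and 72.0 CPM, whereas miR-150 and miR-223 are highest there, at 549.8 and 193 CPM.

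In the fit over all miRNA labels, 5 of the 8 member labels passed the filter on low counts and 0 of these passed at an adjusted p under 0.05. Over all labels edgeR called 0 of 236 (0%), with 11 (4.66%) at an unadjusted p under 0.05, of which 0 were members. DESeq2 called 7 of 236 labels (2.97%), again 0 of them members. The 5 member fold changes, 2 positive and 3 negative, had a median of -0.23, beside -0.04 over all 236 labels. In CPM, Mdd lay above both controls for 2 of the 5, miR-451a and miR-486a/miR-486b, and for 16.5% of all tested labels. Mdd lay below both controls for 1 of the 5, miR-142a, and for 21.6% of all. On the RPM scale, Mdd was above both controls for miR-486a/miR-486b alone of the 5, where 4.24% of all labels were, and below for miR-142a alone, where 37.7% were. Whether the member labels differ from the other miRNAs in this was not tested.

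The lengths and ends of miR-451a reads set control replicate 2 apart from the other libraries. The hairpin from RefSeq, with the 22 nt mature miRNA in capitals, is set above the deposited reads of 21, 22, 23 and 26 nt, because they show where the 3′ end falls. Capitals in the reads mark bases past the 22 nt form.
Hairpin: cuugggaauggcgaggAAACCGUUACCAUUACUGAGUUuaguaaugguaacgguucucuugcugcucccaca
Read of 21 nt: aaaccgttaccattactgagt
Read of 22 nt: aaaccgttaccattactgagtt
Read of 23 nt: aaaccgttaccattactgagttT
Read of 26 nt: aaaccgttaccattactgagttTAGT
The 21 nt read is 1 base shorter than the RefSeq form and was the most read form in every library. It had 8422 and 3087 reads in Mdd and 2281 and 480 reads in controls, or 73.6% and 68.7% of miR-451a reads in Mdd and 69.7% and 32.5% in controls. Control replicate 2 was thus apart from the other 3 libraries. The 22 nt read made up 19.95% and 26.98% in Mdd and 20.2% and 31.9% in controls.

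Longer reads, which run past the 3′ end of the mature sequence, were a larger part of the control reads. The 23 nt read made up 2.81% and 1.45% of miR-451a reads in Mdd and 4.89% and 11.8% in controls. The 26 nt read, ending 4 bases past the mature form, made up 0.918% and 0.356% in Mdd and 2.05% and 6.83% in controls. Its 105 and 16 reads in Mdd lie below 3 times the usual copies, or 132 and 21 reads. Between them the reads of 24 and 25 nt were rare, with at most 10 and 12 reads in a library. Reads of up to 22 nt took 96.3% and 97.97% in Mdd and 92.9% and 80.4% in controls. That share averaged 97.1% ± 1.21 in Mdd and 86.6% ± 8.83 in controls (SD, n = 2 each). The difference was 10.5 percentage points, or 4.24 without control replicate 2 and 16.7 without control replicate 1. By exact permutation its p was 0.333 with all libraries, which 2 against 2 cannot go below. Mean lengths were 21.26 and 21.29 nt in Mdd and 21.36 and 21.7 nt in controls.

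Control replicate 2 also held miR-451a reads that start inside the mature sequence. Those reads made up 0.00874% and 0.289% of miR-451a in Mdd and 0.397% and 13.8% in controls, from 1 and 13 reads in Mdd and 13 and 204 reads in controls. The 95% Wilson interval in control replicate 2 was 12.1% to 15.6%. Over all miRNA labels that library held 2064 distinct sequences, against 992 to 1120 in the others. For miR-451a, 8 different sequences that start inside the mature form contributed there. The most read of these forms starts 2 bases downstream and so carries a different seed, in capitals here.
Shifted read of 20 nt: aCCGTTACcattactgagtt
It had 0 and 3 reads in Mdd and 0 and 72 reads in controls. Among the 95 other labels with at least 50 reads in each library, 80 could be placed on RefSeq hairpins. Over these, reads with another 5′ end than the annotated one made up 16.3% and 12.0% in Mdd and 17.3% and 11.2% in controls. Control replicate 2 was thus lowest for their summed reads, which abundant labels carry. The median label had 0.581% and 2.54% of such reads in Mdd and 0.886% and 2.22% in controls, higher in the libraries numbered 2 of both groups. Control replicate 2 was the highest of the 4 for 22 of the 80 labels (27.5%).

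**Figure D3:**
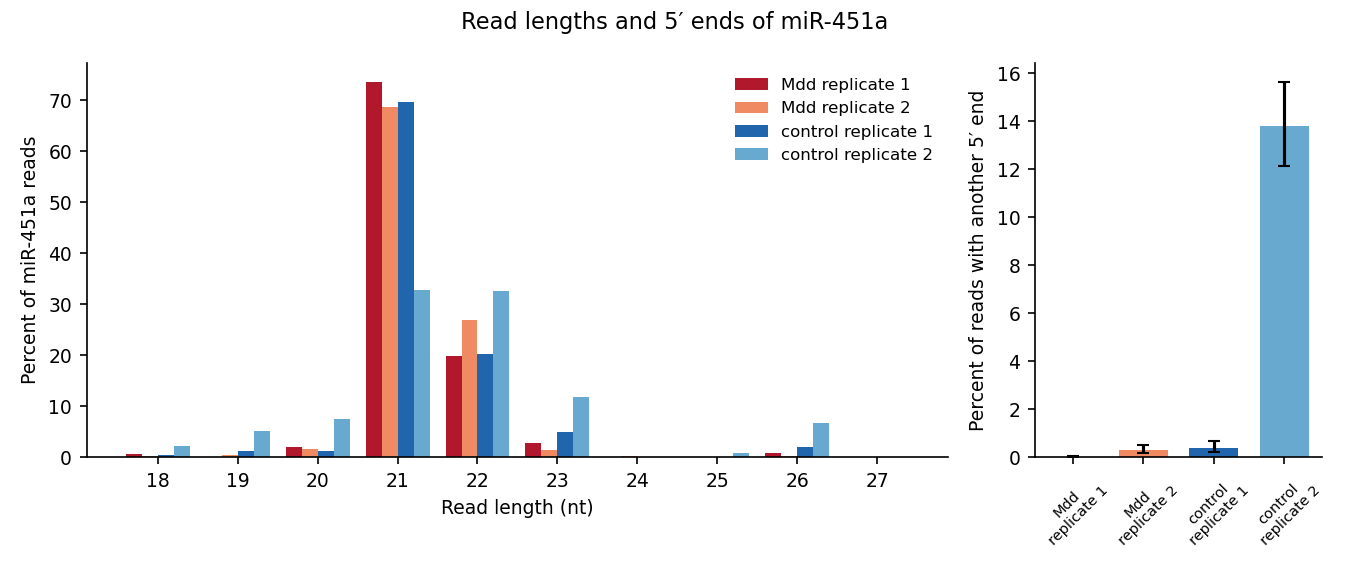
Left, percent of miR-451a reads at each length from 18 to 27 nt, with a bar for each library. Right, percent of miR-451a reads whose 5′ end is not the annotated one, with 95% Wilson intervals on reads. Reads of 21 nt lead in every library, but in control replicate 2 only at 32.9% against 32.7% of 22 nt, and that library has 13.8% of reads with another 5′ end.

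Lengths of the other members rested on few sequences. miR-486 reads averaged 21.58 and 22.02 nt in Mdd and 21.21 and 22 nt in controls, which overlap (exact permutation p of 0.667). The 22 nt read of the joint label had 236 and 170 reads in Mdd and 12 and 18 reads in controls, with a log2 fold change of 3.77 and an SE of 1.15 (edgeR adjusted p = 0.534 over 754 miRNA sequences). DESeq2 called this sequence (log2 fold change 3.83, SE 1.14, adjusted p = 0.0385), among 15 calls in the 637 sequences with an adjusted p (2.35%), while its adjusted p ran from 0.0616 to 0.985 over the settings of edgeR. Both control counts of the 22 nt read lie below 3 times the usual copies, or 21 and 30 reads in control replicates 1 and 2. The counts also leave out reads that add a base to this read, which are treated below. With an added T there were 1 and 113 reads in Mdd and 26 and 47 in controls. With an added A there were 0 and 123 reads in Mdd and 0 and 40 in controls. The 21 nt read of the joint label had 173 and 22 reads in Mdd and 44 and 1 reads in controls. edgeR called 0 of the 754 sequences (0%), with 67 (8.89%) at an unadjusted p under 0.05, of which 1 was among the 12 member sequences tested. That was this 22 nt read. Without control replicate 1 edgeR called the 21 nt miR-451a read (log2 fold change 4.29, SE 1.10, adjusted p = 0.0140), whose fold change with all libraries was 1.31 (SE 1.13, adjusted p = 0.9997). That fit called 13 of 1318 sequences (0.986%), and with a single control library left its spread comes from the Mdd libraries alone. Over the edgeR settings the adjusted p of the 21 nt read ran from 0.0140 to 1.

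Leukocyte reads averaged 21.7 and 20.2 nt in Mdd and 21.2 and 21.2 nt in controls, which overlap (exact permutation p of 1). All miR-223 reads were of the 3p arm and began at its annotated 5′ end, with lengths of 18 to 23 nt. Its 22 nt RefSeq form had 0 and 0 reads in Mdd and 2 and 13 reads in controls, and the 21 nt form 1 and 15 reads in Mdd and 0 and 17 reads in controls. miR-142a drew on different arms in the libraries. The 5p arm had 1 and 0 reads in Mdd and 26 and 19 reads in controls, and the 3p arm 1 and 6 reads in Mdd and 0 and 4 reads in controls. In control replicate 2, 18 of the 19 reads of the 5p arm began 2 bases upstream of the RefSeq start, while 19 of 26 in control replicate 1 began at it. The most read miR-150 sequence, of 22 nt, supplied 60 of 60 reads in Mdd replicate 1, and in controls 16 of 19 and 86 of 145.

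Within the erythroid set, miR-486 was higher relative to miR-451a in both Mdd libraries when labelled reads were counted. This comparison was chosen after its values were seen. All miR-486 labels together had 35.7 and 48.8 reads per 1000 miR-451a reads in Mdd and 17.1 and 16.9 in controls, without overlap (exact permutation p of 0.333, the smallest possible). The members' labels, however, hold sequences that match the genome. Sequences that do not match it and that equal a miRNA read plus 1 to 3 further bases were mostly filed as piRNA, 99.4% of such reads in the case of miR-486. An added base and a changed last base cannot be told apart in such reads. For miR-486 they numbered 4 and 238 reads in Mdd and 27 and 92 reads in controls. Of their 361 reads, 187 ended in an added T and 164 in an added A. They made up 0.969% and 55.3% of the joint label's reads in Mdd and 32.5% and 82.9% in controls, when counted with it. Counted in, miR-486 had 35.6 and 100.5 reads per 1000 miR-451a reads in Mdd and 25.2 and 76.9 in controls, and the groups overlapped (exact permutation p of 0.667).

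**Figure D4:**
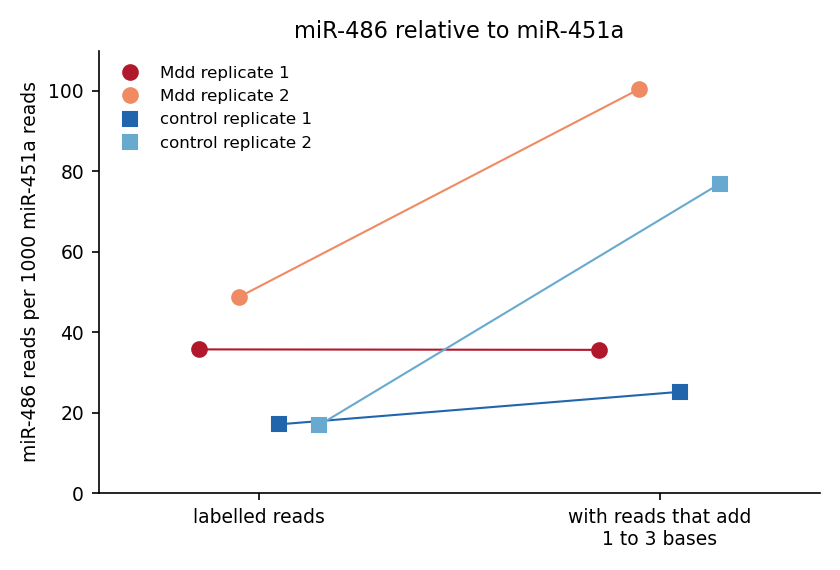
Reads of miR-486 per 1000 miR-451a reads in each library, on the left from labelled reads and on the right with reads that add 1 to 3 bases counted in for both miRNAs. Lines join the values of a library. The labelled reads give 35.7 and 48.8 in Mdd against 17.1 and 16.9 in controls, and with the added reads control replicate 2, at 76.9, lies above Mdd replicate 1, at 35.6.

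Such lengthened reads were uneven among the other members. For miR-451a they were few, at 1.29% and 1.21% in Mdd and 0.668% and 2.76% in controls. miR-223 had 1 and 1 in Mdd and 0 and 62 in controls, so that 54.9% of its reads in control replicate 2 lay outside its label. For miR-150 there were 49 and 1 in Mdd and 0 and 38 in controls. miR-144 and miR-142a had 0. Over all other miRNA labels the share was 16.0% and 16.1% in Mdd and 14.5% and 12.6% in controls. With these reads counted for all miRNAs, the log2 fold change of miR-223 was -1.13 and that of miR-150 was -0.72, and 0 of the members passed with edgeR (adjusted p = 0.553 to 0.977). The log2 ratio of erythroid to leukocyte reads was then 6.63 and 7.77 in Mdd and 6.17 and 2.36 in controls. From labelled reads it was 7.38 and 7.81 in Mdd and 6.15 and 2.78 in controls. Mdd replicate 1 thus came closer to control replicate 1, though the groups still did not overlap.

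Other miRNAs known from blood cells were mixed in their order of libraries. Of 6 further miRNAs abundant in red cells, 5 had reads of their own label and were tested, and 0 passed with edgeR (3 positive and 2 negative fold changes, median 0.01). miR-92a stood at 30305 and 46069 CPM in Mdd and 33017 and 14776 CPM in controls, lowest in control replicate 2 as miR-451a was. miR-93 was higher in both Mdd libraries than in both controls, at 11008 and 24540 CPM in Mdd and 10723 and 10730 CPM in controls, with little between Mdd replicate 1 and the controls. miR-16 was highest in control replicate 2, at 7439 and 8637 CPM in Mdd and 8484 and 18635 CPM in controls. Of 7 further miRNAs common in white cells, all had reads, 5 were tested and 0 passed with edgeR (1 positive and 4 negative, median -1.17). miR-21a, widely expressed and raised in activated immune cells, stood at 13667 and 11797 CPM in Mdd and 15215 and 42290 CPM in controls. miR-146a, induced by inflammatory signals, stood at 1000.3 and 925 CPM in Mdd and 987 and 3276 CPM in controls. miR-181a differed less between libraries, at 5243 and 6957 CPM in Mdd and 5174 and 7776 CPM in controls. Its log2 fold change was -0.08 (SE 0.65). Both lists also hold miRNAs expressed well outside blood.

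Among 218 other labels with a mean of at least 100 CPM, profiles were compared by the root mean square distance of log2(CPM + 1), centred over the 4 libraries. The 5 labels nearest to miR-451a were miR-1195, miR-6538, miR-1843b, miR-1194 and miR-31, at distances of 0.48 to 0.55. The joint miR-486a/miR-486b label was 11 in this order, at 0.71, and miR-223 was 148, at 2.30. The 5 labels nearest to miR-223 were miR-200a, miR-378a, miR-23a, miR-148a and miR-196b, at 0.42 to 0.56, with miR-451a at place 170. These 5 were picked for nearness to miR-223, which had only 2 to 51 reads per library. Like miR-223, they had more CPM in the libraries numbered 2 than in those numbered 1 of both groups, which follows from that choice.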

How the data were processed

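The authors deposited, per the file headers, raw read counts of distinct sequences of 15 to 45 nt, each with its length, a genome match mark and an annotation. Per the submitters' processing notes, mm9 and DESeq2 were used. The sources used here name no aligner, trimming tool or annotation database. The deposited counts were joined by sequence. An annotation given in any library was applied to the sequence in all, since Mdd replicate 1 was annotated with fewer classes. Sequences under 18 nt were left out, because the protocol selected RNA from 18 nt. Copy numbers of hairpins were dropped and joint names kept.

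Counts per label and per sequence were tested with edgeR 4.0.16 (quasi-likelihood, TMM, filterByExpr, two-sided, Benjamini-Hochberg over all features, threshold 0.05) in R 4.3.3, and with DESeq2 1.42.0. Standard errors are the log2 fold change over the root of F. Per-library values were compared by exact permutation (scipy 1.17.1). RefSeq sequences are of GRCm38.p6. No coordinates of the files' build were used. Members and lists were chosen with earlier results of these data known. Named were all members, their leading sequences, up to 3 labels per marker list and the 5 nearest profiles. Alternatives are given in the closing section.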

Additional observations from a re-analysis of the deposited data

How the results depend on the processing

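Under every alternative run, 0 member labels passed the threshold, and the fold changes of miR-451a, miR-486a/miR-486b, miR-150 and miR-142a kept their sign wherever the label was tested. The count of all miRNA labels past the threshold, 0 with edgeR, was 7 with DESeq2, 5 with the library size of all RNA classes, 6 with no filter on low counts, 6 with a mean CPM of at least 10, 1 with robust dispersion, 1 with all lengths and 0 to 16 with a library left out. Member sequences past the threshold numbered 1 with DESeq2 and 0 to 1 with a library left out. The fold change of miR-223 was 0.013 with RLE scaling, 0.031 with DESeq2, 0.20 with the replicate block, -1.68 with the library size of all RNA classes, and -1.10 to 1.93 with a library left out. With the library size of all RNA classes it was 0.66 for miR-451a and -2.07 for miR-150. The library size of all RNA classes moved the median log2 fold change of all labels by -1.06, RLE scaling by 0.13 and no filter by -0.21. The miR-486 length difference ran from -0.20 to 0.59 nt with a library left out. That of leukocyte reads was -0.28 nt, but 0.14 over all lengths, 0.20 with sequences of at least 10 reads and -1.04 to 0.47 with a library left out. The causes were not tested.

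Replicate numbers are shared between groups, but the deviations of same-numbered libraries correlated at only -0.03 over 236 labels, so the numbers are not taken to pair samples. With the replicate block 4 labels passed, 0 of them members, and the fold change was 1.76 for miR-451a and -2.98 for miR-150. The log2 ratio of miR-144 to miR-451a had no value because both Mdd libraries hold 0 miR-144 reads of 18 nt or longer. Reads per 1000 miR-451a reads took its place, a choice made after seeing the data, as were lengthened reads, division by copies and the miR-486 ratio. Division by copies left 2 member labels to test. Depth limits miR-144, with 0 to 4 reads per library, and the leukocyte labels, with 21 to 219 in sum.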
